A study of Arabidopsis thaliana with 9 samples.

Results

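The nuclear photosystem and light-harvesting genes of Arabidopsis thaliana were described across 3 genotypes in leaf RNA-seq. The set was chosen by locus identifier, as the nuclear LHCA, LHCB, PSA and PSB genes, and held 42 of the 27655 genes measured. It comprised 20 antenna genes (6 LHCA and 14 LHCB), 12 genes of photosystem I subunits and 10 genes of photosystem II subunits. The rule used no measured value, although earlier results of these data were known when members were chosen. Every member was above the minimum level for testing.

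In the thylakoid membrane of the chloroplast, photosystem II splits water and photosystem I reduces ferredoxin, and both receive light energy from antenna proteins that bind chlorophyll. LHCB proteins form the antenna of photosystem II, as mobile trimers and as minor monomeric proteins beside the core, while LHCA proteins form a belt on photosystem I. The reaction centre proteins are encoded in the chloroplast, whereas the antenna and many outer subunits are encoded in the nucleus, and their transcripts are among the most abundant in a green leaf.

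Leaves were taken from plants that were 3 weeks old and kept at 22 °C under days of 16 h light and 8 h dark. The hyp/c-1 plants were atxr5;atxr5;atxr6hyp;atxr6c-1, with 1 copy each of the atxr6hyp and atxr6c-1 alleles. The hyp/hyp plants were atxr5;atxr5;atxr6hyp;atxr6hyp, with 2 copies of atxr6hyp. The WT plants were Col. Both mutants thus shared the atxr5 background and at least 1 copy of atxr6hyp, and each genotype had 3 libraries. ATXR5 and ATXR6 are methyltransferases that place 1 methyl group on lysine 27 of histone H3. The labels do not say whether libraries of a genotype came from separate plants, so p-values measure the spread between these libraries, and the hour of harvest is not given in them.

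Recovered depth ran between 21289647 and 38766556 reads per library. ATXR6 had 1, 0 and 2 reads in the hyp/c-1 libraries, 0, 2 and 3 in the hyp/hyp libraries and 40, 41 and 41 in the WT libraries, and ATXR5 had 50 to 68, 44 to 64 and 132 to 151 reads in the same order. Markers of flowers and shoot meristems were near 0 in every library, with sums of at most 1.58 and 0.0360 TPM. The summed level of 3 phloem markers was 212 to 284 TPM in hyp/c-1 libraries, 196 to 274 TPM in hyp/hyp libraries and 155 to 163 TPM in WT libraries. That of 5 epidermis markers was 303 to 337 TPM in hyp/c-1, 251 to 303 TPM in hyp/hyp and 361 to 392 TPM in WT libraries. Most of this sum came from FDH and ABCG12. FDH averaged 166, 155 and 220 TPM and ABCG12 121, 98.0 and 124 TPM in hyp/c-1, hyp/hyp and WT. In each mutant 4 of the 5 were below WT, and GL2 was above it, at 2.32, 2.31 and 1.55 TPM in the same order. Whether these markers bear on the results below was not tested, and in whole leaves fewer cells of a type and less RNA per cell cannot be told apart.

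The 42 genes held about the same share of the transcript pool in all genotypes. Their summed level was 23.00, 24.3 and 26.1% of nuclear TPM in the hyp/c-1 libraries, 24.5, 23.7 and 20.7% in the hyp/hyp libraries and 23.1, 22.1 and 22.96% in the WT libraries, and the genotypes overlapped. TPM, the transcript count scaled to a fixed library total, is a level that takes gene length into account. Antenna genes made up most of this share, with 15.1, 16.2 and 17.4% in hyp/c-1, 16.2, 15.7 and 13.4% in hyp/hyp and 14.99, 14.2 and 14.97% in WT, so hyp/c-1 lay just above WT in every library and hyp/hyp overlapped both. Genes of photosystem I held 3.56, 3.68 and 3.95% in hyp/c-1, 3.74, 3.599 and 3.22% in hyp/hyp and 3.66, 3.53 and 3.62% in WT. Those of photosystem II held 4.38, 4.41 and 4.74% in hyp/c-1, 4.52, 4.46 and 4.06% in hyp/hyp and 4.43, 4.34 and 4.38% in WT. Of the 10 genes with the highest mean TPM in WT, 8 were members, as were 29 of the highest 50. These shares and ranks use TPM divided by gene span with introns. With exon length instead, antenna genes averaged 12.4% in WT, beside 14.7%. Among members, LHCB1.4 then ranked 14 in WT, beside 6, while LHCB1.3 and LHCB1.5 kept ranks 1 and 2. LHCB1.3 ranked 1 of all genes in WT and LHCB1.5 ranked 2, both encoding major trimer proteins of the photosystem II antenna. At the other end stood LHCB4.3, an isoform of the minor antenna protein CP29, with 84.4, 60.4 and 69.7 TPM in the hyp/c-1 libraries, 82.3, 72.9 and 73.04 TPM in the hyp/hyp libraries and 86.2, 89.2 and 87.1 TPM in the WT libraries.

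**Figure D1:**
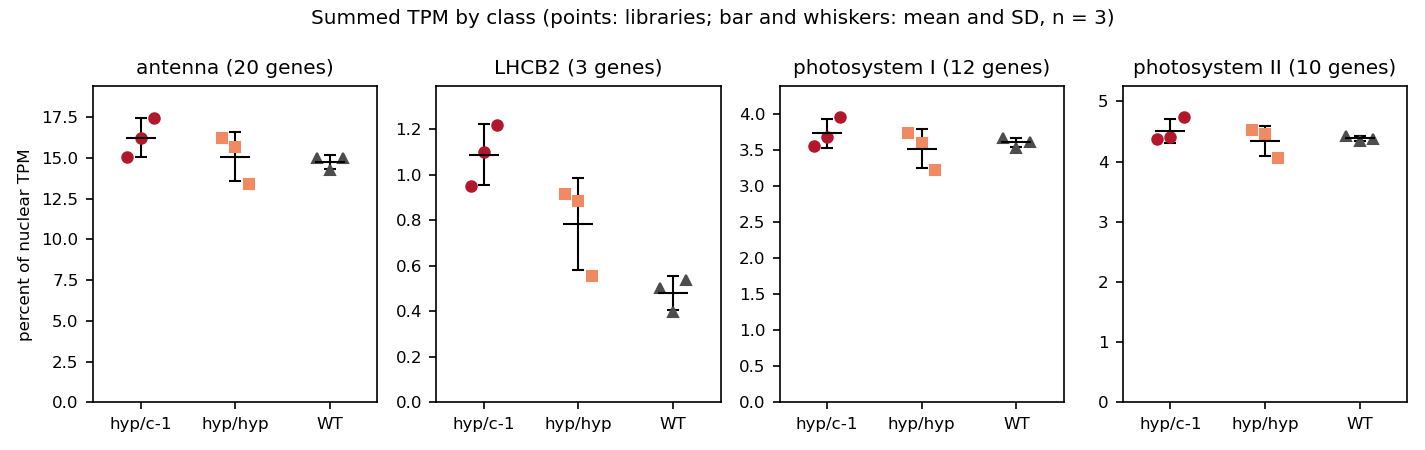
Summed TPM of each class as a percent of nuclear TPM (vertical axes, each from 0) in the 3 libraries of hyp/c-1, hyp/hyp and WT, with bars and whiskers for the mean and SD. The photosystem I and photosystem II sums overlapped between genotypes, the antenna sum of hyp/c-1 lay just above that of WT in every library, and the LHCB2 sum was above WT in every library of both mutants.

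Within the set, a few antenna genes and 1 photosystem II gene rose in the mutants, 3 members fell in hyp/hyp, and the others did not pass. In hyp/c-1, 5 of 42 members (11.9%) rose and 0 fell against WT, where 20.4% of all 17682 genes tested passed, 11.2% higher and 9.21% lower. At an unadjusted p under 0.05, which 33.3% of all genes passed in either direction, 1 member was lower in hyp/c-1, and limma voom on recovered reads also called 0 lower. The 5 were LHCB2.1, LHCB2.2, LHCB2.3, LHCB4.2 and PSBQ2. In hyp/hyp, 4 of 42 rose (9.52%) and 3 fell (7.14%) against WT, where 20.8% of all genes passed, 11.5% higher and 9.3% lower. LHCB2.2, LHCB2.3, LHCB4.2 and PSBQ2 rose there, and LHCA5, LHCA6 and PSBQ1 fell. A gene passed at an adjusted p under 0.05 by limma on log2(TPM + 1). The shares of members called were thus near or under the shares of all genes. Both comparisons used the same WT libraries. Requiring also an absolute log2 difference of at least 1 left 3 members higher in hyp/c-1, all LHCB2 genes, where 2.61% of all genes were higher and 0.583% lower, and 0 members in hyp/hyp, where 2.36% were higher and 0.503% lower. The median log2 difference over the members was 0.07 in hyp/c-1 and -0.05 in hyp/hyp, beside -0.02 and 0.06 over all genes tested.

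The counts depended on single libraries. The count of members higher in hyp/c-1 than in WT was 9 without hyp/hyp replicate 3, where 12.2% of all genes were higher, and 3 without WT replicate 1, where 7.18% were. The count lower in hyp/c-1 was 1 without hyp/c-1 replicate 1, where 11.1% of all genes were lower. The count higher in hyp/hyp was 1, PSBQ2, when hyp/hyp replicate 1, hyp/hyp replicate 2, WT replicate 1 or WT replicate 2 was left out, and 10.9, 7.69, 5.68 and 6.59% of all genes were then higher. LHCB2.1, LHCB2.2 and LHCB2.3 in hyp/c-1 and LHCA5 and LHCA6 in hyp/hyp passed whichever library was left out.

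**Figure D2:**
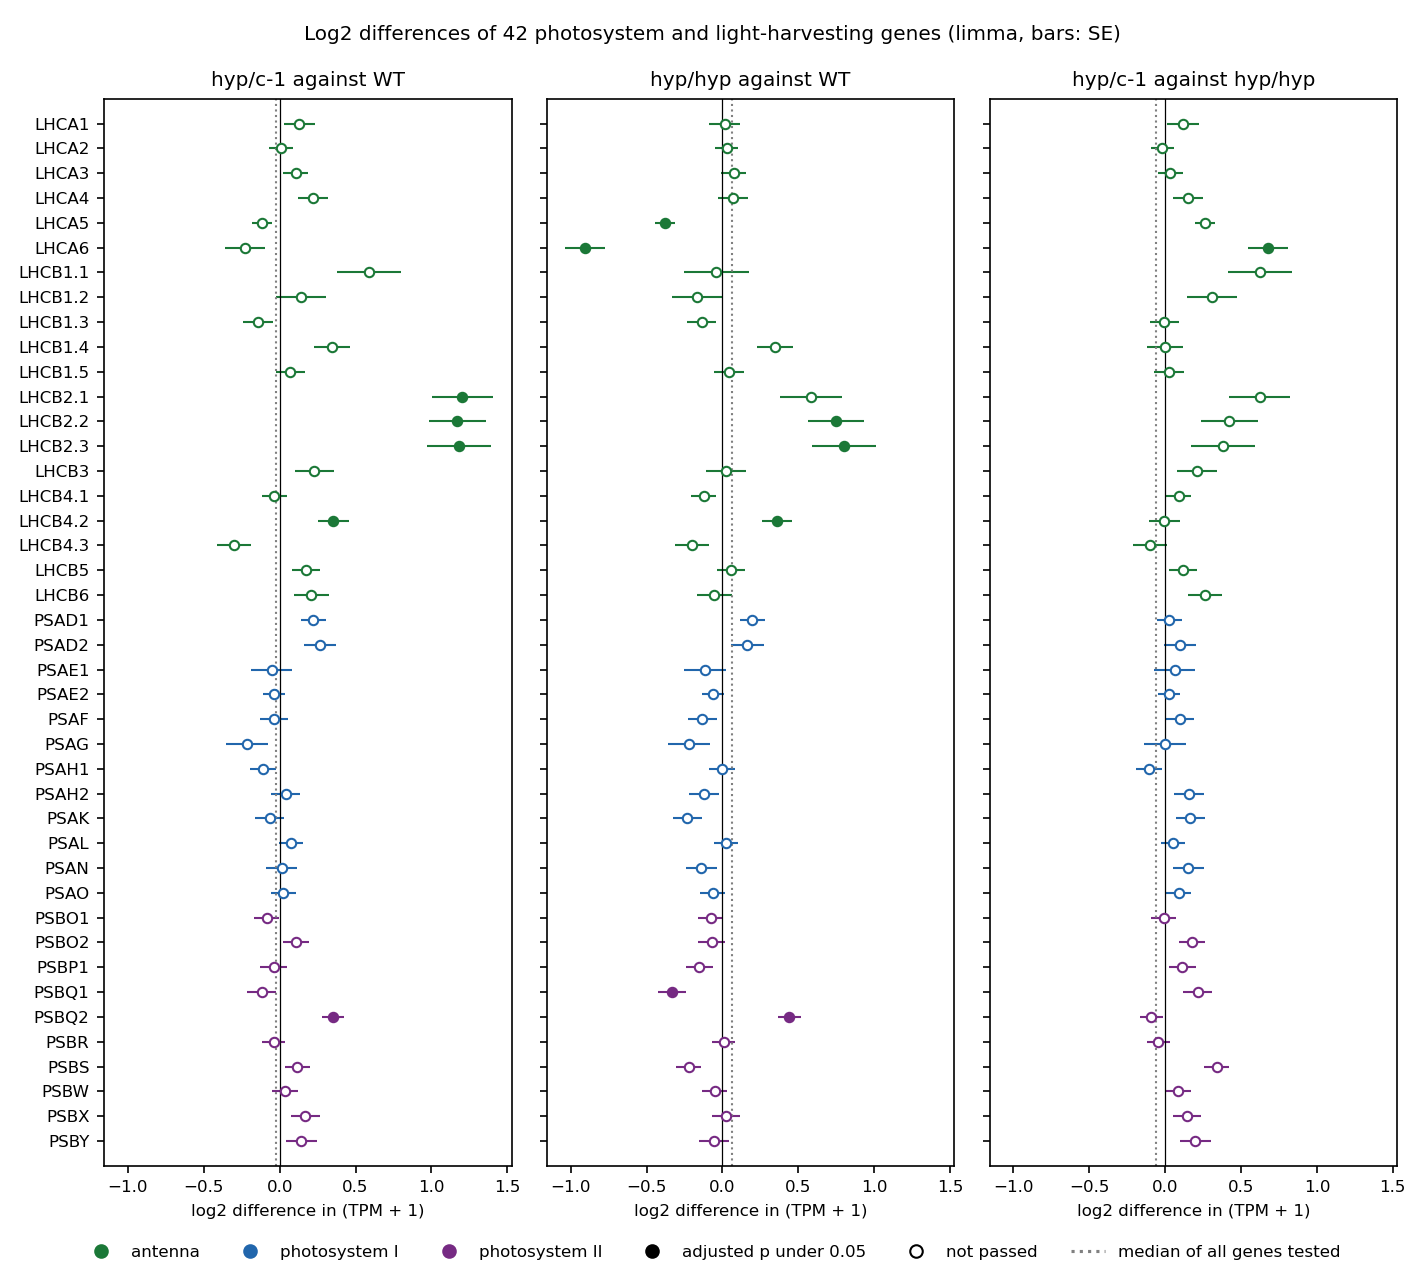
Difference in log2(TPM + 1) for each of the 42 genes (rows, coloured by class) in the 3 comparisons, with bars for the SE; filled points passed at an adjusted p under 0.05 and the dotted line marks the median of all genes tested. The 3 LHCB2 genes stand furthest right in hyp/c-1 against WT, LHCA6 stands furthest left in hyp/hyp against WT, and every photosystem I gene is open.

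The LHCB2 genes, which encode a major trimer protein whose phosphorylation lets the antenna move between photosystems, carried the largest differences from WT among the members in hyp/c-1. LHCB2.1 (AT2G05100, chr2:1822990-1824480, minus strand) had 4070.2, 4760.0 and 5361 TPM in the hyp/c-1 libraries, 3682, 3557 and 2173 TPM in the hyp/hyp libraries and 2220.4, 1699 and 2250.2 TPM in the WT libraries. All hyp/c-1 libraries lay above all WT libraries, whereas hyp/hyp replicate 3 lay within the WT range. The gene averaged 4730.3 ± 646 TPM in hyp/c-1, against 2057 ± 310.0 TPM in WT (SD, n = 3 each), a 2.3-fold level and a log2 difference of 1.204 with SE 0.20 (limma adjusted p = 0.00313). In hyp/hyp its log2 difference from WT was 0.58 (limma adjusted p = 0.0698), which did not pass, and without hyp/hyp replicate 3 it passed.

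LHCB2.2 (AT2G05070, chr2:1799234-1800472, minus strand) had 4583, 5227 and 5641 TPM in the hyp/c-1 libraries, 4562, 4387 and 2806 TPM in the hyp/hyp libraries and 2364, 1919 and 2609 TPM in the WT libraries. Every library of both mutants was above every WT library, hyp/hyp replicate 3 by the smallest margin. The log2 difference from WT was 1.17 with SE 0.19 in hyp/c-1 (limma adjusted p = 0.0024) and 0.75 with SE 0.19 in hyp/hyp (limma adjusted p = 0.0197). The call in hyp/hyp was lost without hyp/hyp replicate 1 or 2 or WT replicate 1 or 2.

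LHCB2.3 (AT3G27690, chr3:10255906-10257489, plus strand) was the lowest of the 3, with 838, 977 and 1149.6 TPM in the hyp/c-1 libraries, 898, 872 and 544 TPM in the hyp/hyp libraries and 448, 346 and 519.9 TPM in the WT libraries. Again both mutants lay wholly above WT. Its log2 difference from WT was 1.18 with SE 0.21 in hyp/c-1 (limma adjusted p = 0.00417) and 0.80 with SE 0.21 in hyp/hyp (limma adjusted p = 0.0251). The hyp/hyp call was lost when the same libraries as for LHCB2.2 were left out. Between the mutants, no LHCB2 gene passed, with log2 differences of hyp/c-1 over hyp/hyp of 0.62, 0.42 and 0.38 for LHCB2.1, LHCB2.2 and LHCB2.3 (limma adjusted p = 0.107, 0.195 and 0.288).

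Of the 50-base stretches in LHCB2.1 transcripts 23.5% occurred in another transcript, as did 29.5% of those in LHCB2.2, so the split of reads between these genes is uncertain. LHCB2.3 had none elsewhere. It overlaps AT3G27700 on the opposite strand by 595 bases, and that gene had between 8.75 and 13.3 TPM. The LHCB2.1 share of LHCB2 TPM was 42.9, 43.4 and 44.1% in hyp/c-1, 40.3, 40.3 and 39.3% in hyp/hyp and 44.1, 42.9 and 41.8% in WT. It was wholly below the other genotypes in hyp/hyp, by a small margin. The LHCB2.3 share, at 9.82 to 9.89% in hyp/hyp, lay just above the 8.73 to 9.67% in WT. As a percent of LHCB1, the other abundant trimer family, summed LHCB2 TPM was 12.2, 12.8 and 13.2 in hyp/c-1, 10.5, 10.5 and 7.53 in hyp/hyp and 6.002, 4.89 and 6.47 in WT. These percents did not overlap between mutants and WT.

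**Figure D3:**
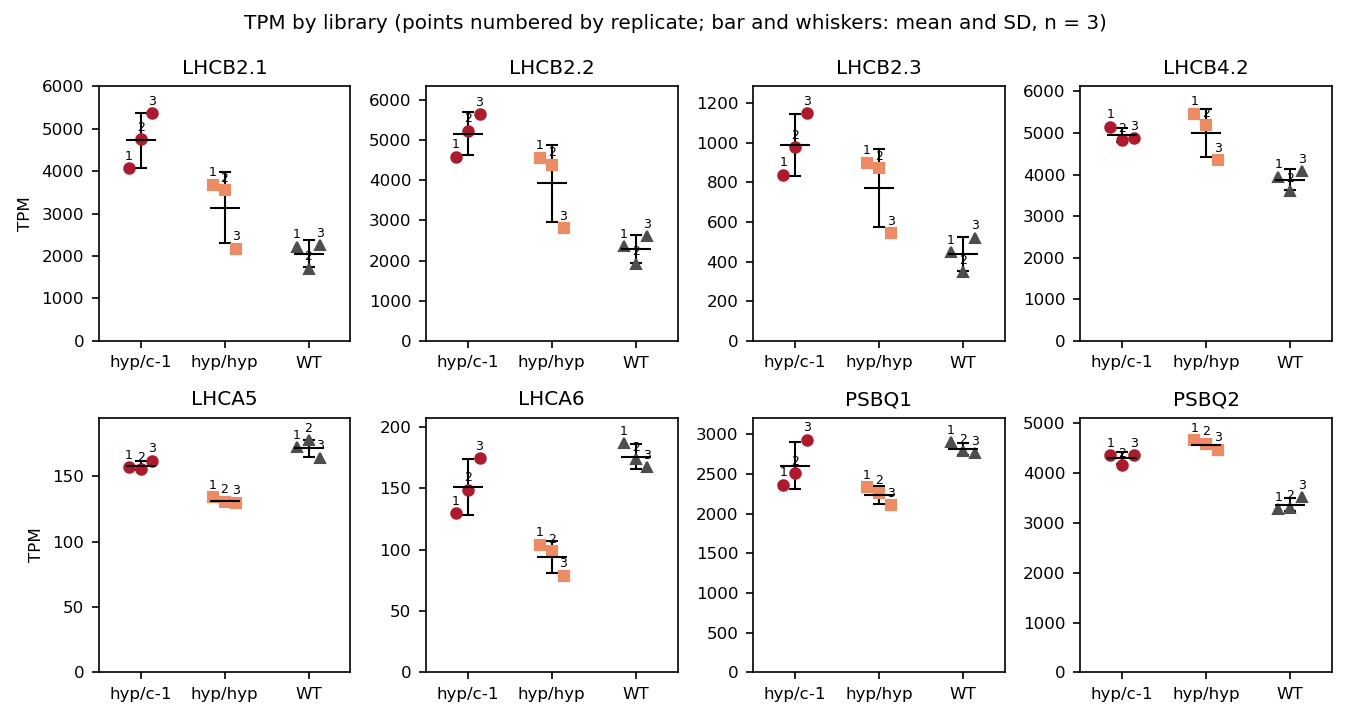
TPM (vertical axes, each from 0) of the 8 members that passed against WT in at least 1 mutant, in the 3 numbered libraries of hyp/c-1, hyp/hyp and WT, with bars and whiskers for the mean and SD. The LHCB2 genes, LHCB4.2 and PSBQ2 are high in the mutants, LHCA6 is low in hyp/hyp, and hyp/hyp replicate 3 is the lowest library of its genotype in all 8 panels.

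The 250 bases before the annotated start of the LHCB2 genes are shown because these genes moved together, beside those of PSBQ2, which also rose, and of LHCB1.3, the most abundant member, which did not pass. Sequences are from RefSeq assembly TAIR10.1, written 5′ to 3′ in the direction of the gene, from chr2:1824481-1824730 (minus strand), chr2:1800473-1800722 (minus strand), chr3:10255656-10255905 (plus strand), chr4:2673244-2673493 (minus strand) and chr1:10477635-10477884 (plus strand). Capitals mark CCAATC, a motif known from promoters bound by GLK transcription factors, the G-box CACGTG and the I-box GATAAG, each searched on both strands, together with the evening element AAAATATCT and the CCA1-binding letters AAAAATCT or AACAATCT.
LHCB2.1: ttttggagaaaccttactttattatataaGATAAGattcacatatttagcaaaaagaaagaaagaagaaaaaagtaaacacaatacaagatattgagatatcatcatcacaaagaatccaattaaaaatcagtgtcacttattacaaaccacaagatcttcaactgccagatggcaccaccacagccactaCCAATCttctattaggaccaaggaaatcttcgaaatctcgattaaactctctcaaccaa
LHCB2.2: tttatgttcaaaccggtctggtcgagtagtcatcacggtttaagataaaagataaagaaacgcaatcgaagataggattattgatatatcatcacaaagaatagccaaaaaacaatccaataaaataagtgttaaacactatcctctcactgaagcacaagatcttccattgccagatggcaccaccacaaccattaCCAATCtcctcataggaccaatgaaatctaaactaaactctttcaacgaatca
LHCB2.3: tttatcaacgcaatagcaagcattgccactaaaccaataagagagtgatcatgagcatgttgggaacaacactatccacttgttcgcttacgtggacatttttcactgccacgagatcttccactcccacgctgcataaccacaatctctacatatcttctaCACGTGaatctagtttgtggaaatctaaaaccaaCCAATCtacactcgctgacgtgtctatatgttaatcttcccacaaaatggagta
PSBQ2: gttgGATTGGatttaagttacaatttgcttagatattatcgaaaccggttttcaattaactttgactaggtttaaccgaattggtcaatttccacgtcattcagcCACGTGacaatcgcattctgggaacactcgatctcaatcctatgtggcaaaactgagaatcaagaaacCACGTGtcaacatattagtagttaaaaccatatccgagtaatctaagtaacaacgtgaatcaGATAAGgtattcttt
LHCB1.3: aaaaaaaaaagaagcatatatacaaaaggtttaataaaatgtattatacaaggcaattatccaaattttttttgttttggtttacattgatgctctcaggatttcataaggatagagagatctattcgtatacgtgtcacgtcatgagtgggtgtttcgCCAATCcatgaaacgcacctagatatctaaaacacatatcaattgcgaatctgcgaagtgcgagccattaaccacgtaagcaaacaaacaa
CCAATC began 59 bases before the start in LHCB2.1, 53 in LHCB2.2 and 54 in LHCB2.3, on the strand of the gene. In LHCB1.3 it began 91 bases before the start, and in PSBQ2 it lay 246 bases before it on the other strand. The motifs searched do not overlap one another in these windows.

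CCAATC was present in the windows of 11 of 42 members, against 10.2% of the 27443 genes searched. The 11 were 10 of 20 antenna genes, 0 of 12 photosystem I genes and 1 of 10 photosystem II genes. It was present in all 5 members that rose against WT in a mutant, in 0 of the 3 that fell and in 6 of the other 34. Those 5 include the 3 LHCB2 genes of 1 family, and motifs were chosen with earlier results of these data known. These counts are therefore a description and not a test. Among all genes tested, 11.9% of the 1876 with CCAATC rose in hyp/c-1, against 11.1% of the 15724 without it, and in hyp/hyp 11.1% with it rose, against 11.6% without. The G-box was found in 8 of 42 members and 6.49% of all genes, and the I-box in 9 of 42 and 12.3% of all genes. A match describes letters in the window and is not evidence of binding.

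Of the 5 LHCB1 genes, none passed in any comparison, although all but LHCB1.3 averaged higher than WT in hyp/c-1. LHCB1.1 had 4637, 6458 and 7343 TPM in the hyp/c-1 libraries, 4838, 4318 and 2857 TPM in the hyp/hyp libraries and 4286, 3571 and 4238 TPM in the WT libraries. Its log2 difference from WT in hyp/c-1 was 0.59 with SE 0.21 (limma adjusted p = 0.0798), and it passed without hyp/c-1 replicate 1. The hyp/c-1 libraries were spread widely, with replicate 1 near the WT range.

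LHCB1.4 had 7761, 9329 and 9466 TPM in the hyp/c-1 libraries, 9696, 9441 and 7526 TPM in the hyp/hyp libraries and 7126, 6911 and 6769 TPM in the WT libraries. Both mutants were wholly above WT, with log2 differences of 0.35 in hyp/c-1 and 0.35 in hyp/hyp (limma adjusted p = 0.0673 and 0.0647). LHCB1.2 had 5181, 6883 and 8516 TPM in the hyp/c-1 libraries, 6028, 5572 and 4760.4 TPM in the hyp/hyp libraries and 6213, 5862 and 6246 TPM in the WT libraries, and its genotypes overlapped.

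LHCB1.3 had 31972, 35480.2 and 38060.5 TPM in the hyp/c-1 libraries, 36190.4, 36322 and 33318 TPM in the hyp/hyp libraries and 38566, 39253 and 38399 TPM in the WT libraries, so both mutants lay wholly below WT with a log2 difference of -0.14 in hyp/c-1 and -0.14 in hyp/hyp that did not pass. LHCB1.5 had 28015, 27684 and 28926 TPM in the hyp/c-1 libraries, 29975, 28499 and 24853 TPM in the hyp/hyp libraries and 27651, 25491 and 27472 TPM in the WT libraries. Its lowest hyp/c-1 library was just above its highest WT library, hyp/hyp overlapped WT, and it did not pass. Coding sequences of the 5 copies were between 86.8% and 96.4% identical in pairs, and 10.6% to 20.5% of their 50-base stretches occurred elsewhere, so values of single copies are uncertain. Summed over the family, LHCB1 stood at 7.77, 8.59 and 9.24% of nuclear TPM in hyp/c-1, 8.68, 8.43 and 7.34% in hyp/hyp and 8.395, 8.12 and 8.32% in WT, which overlapped.

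LHCB4.2, a gene for the minor antenna protein CP29, had 5149, 4829 and 4883 TPM in the hyp/c-1 libraries, 5463, 5183 and 4347 TPM in the hyp/hyp libraries and 3951, 3611 and 4082 TPM in the WT libraries. Mutant libraries were all above WT libraries. It averaged 4954 ± 172 TPM in hyp/c-1, 4998 ± 581 TPM in hyp/hyp and 3881 ± 243 TPM in WT (SD, n = 3 each), with log2 differences from WT of 0.35 in hyp/c-1 and 0.36 in hyp/hyp (SE 0.10 and 0.10, limma adjusted p = 0.0341 and 0.0317). Both calls are near the threshold: the hyp/c-1 call was lost without any 1 of 7 libraries, the exceptions being hyp/hyp replicates 1 and 3, and the hyp/hyp call was lost without hyp/hyp replicate 1 or 2 or any WT replicate.

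LHCB4.1, which encodes the same protein, did not move with it. The ratio of LHCB4.1 to LHCB4.2 was 1.258, 1.36 and 1.44 in hyp/c-1, 1.19, 1.256 and 1.36 in hyp/hyp and 1.79, 1.86 and 1.66 in WT, with every mutant library below every WT library. LHCB4.3, another isoform, had a log2 difference of -0.30 in hyp/c-1 that did not pass (limma adjusted p = 0.0935). The remaining LHCB genes, LHCB3 of the trimers and the monomers LHCB5 (CP26) and LHCB6 (CP24), had log2 differences from WT of 0.23, 0.17 and 0.21 in hyp/c-1 and 0.02, 0.06 and -0.05 in hyp/hyp, none of which passed. Libraries of hyp/c-1 and WT did not overlap for 12 of 14 LHCB genes, 10 wholly higher and 2 wholly lower, and for 21 of 42 members (50%), 17 wholly higher and 4 wholly lower, where 38.3% of all genes tested did not overlap, 19.0% higher and 19.3% lower. In hyp/hyp against WT 17 of 42 members (40.5%) did not overlap, 6 wholly higher and 11 wholly lower, where 47.3% of all genes did not, 27.5% higher and 19.9% lower.

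The 4 abundant belt genes of photosystem I, LHCA1 to LHCA4, stayed near WT, while the low-level genes LHCA5 and LHCA6, whose proteins link photosystem I to the NADH dehydrogenase-like complex, fell in hyp/hyp. LHCA6 (AT1G19150, chr1:6612630-6613972, plus strand) had 129.6, 149 and 175 TPM in the hyp/c-1 libraries, 104, 98.7 and 78.9 TPM in the hyp/hyp libraries and 187, 174 and 167 TPM in the WT libraries. The hyp/hyp libraries were wholly below the others, and hyp/c-1 overlapped WT through its replicate 3. The gene averaged 93.9 ± 13.3 TPM in hyp/hyp, against 176 ± 10.13 TPM in WT (SD, n = 3 each), a log2 difference of -0.91 with SE 0.13 (limma adjusted p = 0.00154). In hyp/c-1 its log2 difference from WT was -0.23 and did not pass (limma adjusted p = 0.257).

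LHCA6 was the 1 member of 42 (2.38%) that passed between the mutants, where 2.84% of all genes passed and 1.92% were higher. It was higher in hyp/c-1 than in hyp/hyp by a log2 difference of 0.68 with SE 0.13 (limma adjusted p = 0.0354). No member was lower in hyp/c-1 than in hyp/hyp, where 0.922% of all genes were, and 0 members were lower at an unadjusted p under 0.05 or by limma voom. The count higher was 5 without hyp/c-1 replicate 1, when LHCB1.1, LHCB1.2, LHCA5 and PSBS also passed, and 6.27% of all genes then passed as higher and 9.89% as lower. It was 0 when any 1 of the other libraries was left out, with the exception of hyp/hyp replicate 1, and in those 7 settings between 0 and 0.537% of all genes passed as higher. With an absolute log2 difference of at least 1 also required, 0 members passed, where 0.226% of all genes were higher and 0.294% lower. Libraries of the mutants did not overlap for 8 of 42 members (19%), 7 wholly higher in hyp/c-1 and 1 wholly lower, where 23.8% of all genes did not, 11.6% higher and 12.1% lower.

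LHCA5 (AT1G45474) had 157, 155 and 162 TPM in the hyp/c-1 libraries, 134, 131 and 129.8 TPM in the hyp/hyp libraries and 173, 177 and 164 TPM in the WT libraries. The hyp/hyp libraries were the lowest, those of hyp/c-1 lay between, and no genotypes overlapped. Its log2 difference from WT was -0.12 in hyp/c-1 (limma adjusted p = 0.261) but -0.38 with SE 0.07 in hyp/hyp (limma adjusted p = 0.00403), and that of hyp/c-1 over hyp/hyp was 0.26 (limma adjusted p = 0.062). LHCA1, LHCA2, LHCA3 and LHCA4 had log2 differences from WT of 0.13, 0.01, 0.11 and 0.22 in hyp/c-1 and 0.01, 0.03, 0.07 and 0.07 in hyp/hyp.

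No gene of photosystem I passed in any comparison. Of the 12, 2 were higher in hyp/c-1 than in WT at an unadjusted p under 0.05, and in hyp/hyp 1 was higher and 1 lower, while limma voom called 0. At that threshold 33.3% of all genes passed in hyp/c-1 and 35.5% in hyp/hyp, either direction counted. PSAD1 and PSAD2, which encode the stromal subunit that docks ferredoxin, had the most positive differences from WT. PSAD1 had 4963, 4834 and 5120.1 TPM in the hyp/c-1 libraries, 5122, 5069.8 and 4469 TPM in the hyp/hyp libraries and 4290.1, 4146 and 4345 TPM in the WT libraries, with both mutants wholly above WT. Its log2 difference was 0.22 in hyp/c-1 and 0.20 in hyp/hyp (limma adjusted p = 0.0862 and 0.12).

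PSAD2 had 3188, 3323 and 3245 TPM in the hyp/c-1 libraries, 3386, 3157 and 2619 TPM in the hyp/hyp libraries and 2716, 2498 and 2926 TPM in the WT libraries, where hyp/c-1 was wholly above WT and hyp/hyp was not. The PSAD1 to PSAD2 ratio was 1.53 ± 0.0659 in hyp/c-1, 1.61 ± 0.0967 in hyp/hyp and 1.57 ± 0.0873 in WT (SD, n = 3 each), so the genes kept their proportion within the spread. The neighbouring subunit PsaE is encoded by PSAE1, with 296, 345 and 408 TPM in the hyp/c-1 libraries, 385, 339 and 281 TPM in the hyp/hyp libraries and 359, 380.2 and 342 TPM in the WT libraries, and by PSAE2, with 1303, 1328 and 1424 TPM in the hyp/c-1 libraries, 1339, 1326 and 1319.9 TPM in the hyp/hyp libraries and 1407, 1404 and 1349.7 TPM in the WT libraries. These genes also kept their proportion, at an average PSAE1 to PSAE2 ratio of 0.258 ± 0.0297 in hyp/c-1, 0.252 ± 0.0372 in hyp/hyp and 0.2597 ± 0.009703 in WT (SD, n = 3 each).

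PSAH1 and PSAH2 encode a subunit where the mobile antenna docks. PSAH1 had 498, 565 and 593 TPM in the hyp/c-1 libraries, 611, 611 and 559.6 TPM in the hyp/hyp libraries and 616, 575 and 593 TPM in the WT libraries. PSAH2 had 1411, 1515 and 1680.5 TPM in the hyp/c-1 libraries, 1450.2, 1465 and 1218 TPM in the hyp/hyp libraries and 1542, 1440.0 and 1495 TPM in the WT libraries. Levels of hyp/c-1 overlapped WT for both genes, and neither passed. The PSAH1 to PSAH2 ratio was 0.353, 0.373 and 0.353 in hyp/c-1, 0.421, 0.417 and 0.4595 in hyp/hyp and 0.3996, 0.399 and 0.397 in WT. Ratios of hyp/c-1 were the lowest and those of hyp/hyp the highest, with no overlap between genotypes. PSAG and PSAK, which encode membrane subunits at the edge of the core, had the most negative differences from WT, with log2 differences of -0.22 for PSAG in hyp/c-1 and -0.23 for PSAK in hyp/hyp. PSAG had 174, 230.4 and 254 TPM in the hyp/c-1 libraries, 239.7, 222 and 191 TPM in the hyp/hyp libraries and 249, 271 and 238 TPM in the WT libraries, and PSAK had 3859, 4104 and 4447 TPM in the hyp/c-1 libraries, 4008, 3739 and 3331 TPM in the hyp/hyp libraries and 4474, 4322 and 4172 TPM in the WT libraries. The genotypes overlapped for PSAG, and for PSAK hyp/hyp was wholly below WT.

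Some photosystem I genes with low levels share much of their length with another gene. PSAG averaged 253 TPM in WT, and 61.4% of its length is shared with AT1G55673. PSAH1 shares 49.0% with a neighbour and averaged 595 TPM in WT, and PSAE1 shares 34.1% and averaged 360.3 TPM. PSAF, the plastocyanin-docking subunit, overlaps no gene of the table and averaged 6099.9 TPM in WT. Low levels also occurred without such an overlap, as in LHCB4.3, LHCA6 and PSBS, with 87.5, 176 and 629 TPM in WT. The part of these overlaps in the levels was not tested.

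In photosystem II, the PSBQ genes, which encode an extrinsic subunit beside the water-splitting site, moved in opposite directions. PSBQ2 (AT4G05180, chr4:2671523-2673243, minus strand) had 4369, 4157 and 4365 TPM in the hyp/c-1 libraries, 4660.3, 4591 and 4476 TPM in the hyp/hyp libraries and 3283, 3311 and 3522 TPM in the WT libraries. Both mutants were wholly above WT, with narrow spread. It averaged 4297 ± 121 TPM in hyp/c-1, 4576 ± 93.3 TPM in hyp/hyp and 3372 ± 131 TPM in WT (SD, n = 3 each), with log2 differences from WT of 0.35 in hyp/c-1 and 0.44 in hyp/hyp (SE 0.07 and 0.07, limma adjusted p = 0.00908 and 0.00334). The hyp/c-1 call was lost without WT replicate 1.

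PSBQ1 (AT4G21280, chr4:11334352-11335815, plus strand) had 2366, 2510.5 and 2933 TPM in the hyp/c-1 libraries, 2334, 2266 and 2109 TPM in the hyp/hyp libraries and 2897, 2786 and 2764 TPM in the WT libraries. The hyp/hyp libraries were all below WT, while hyp/c-1 replicate 3 was above all WT libraries. Its log2 difference from WT was -0.33 with SE 0.09 in hyp/hyp (limma adjusted p = 0.0323), a call lost when any 1 library of hyp/hyp or WT was left out, and -0.12 in hyp/c-1 (limma adjusted p = 0.424). The PSBQ2 to PSBQ1 ratio was 1.85, 1.66 and 1.49 in hyp/c-1, 1.996, 2.03 and 2.12 in hyp/hyp and 1.13, 1.19 and 1.27 in WT. The 3 genotypes did not overlap in this ratio, with hyp/hyp highest and WT lowest. Neither gene shared a 50-base stretch with another transcript.

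PSBO1 and PSBO2 encode the manganese-stabilising extrinsic subunit. PSBO1 had 5580.3, 5468 and 5834 TPM in the hyp/c-1 libraries, 5937, 5858 and 5209 TPM in the hyp/hyp libraries and 6082, 5797 and 6045 TPM in the WT libraries. PSBO2 had 1780.2, 1742 and 1942 TPM in the hyp/c-1 libraries, 1692, 1683 and 1459 TPM in the hyp/hyp libraries and 1743, 1611 and 1713 TPM in the WT libraries. Both mutants overlapped WT for both genes. The PSBO1 to PSBO2 ratio was 3.13, 3.14 and 3.005 in hyp/c-1, 3.51, 3.48 and 3.57 in hyp/hyp and 3.49, 3.598 and 3.53 in WT, lowest in hyp/c-1, and neither gene passed. PSBS, whose protein switches excess light energy to heat, had 660.0, 649 and 739.7 TPM in the hyp/c-1 libraries, 566, 556 and 496 TPM in the hyp/hyp libraries and 642, 618 and 625 TPM in the WT libraries. Libraries of hyp/c-1 were the highest and those of hyp/hyp the lowest, with no overlap, but the log2 difference of hyp/c-1 over hyp/hyp, 0.34 with SE 0.08, did not pass (limma adjusted p = 0.0571). PSBP1, PSBR, PSBW, PSBX and PSBY, an extrinsic subunit and 4 small membrane or lumenal subunits, had log2 differences from WT between -0.04 and 0.17 in hyp/c-1 and between -0.15 and 0.02 in hyp/hyp.

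The members varied together across libraries. Replicate 3 of hyp/c-1 was the highest of 9 libraries for 25 of 42 members, and replicate 3 of hyp/hyp was the lowest of 9 for 26. Within hyp/hyp, replicate 3 was the lowest for 41 of 42 members, and within hyp/c-1 replicate 3 was the highest for 37. The median coefficient of variation over members was 7.02% in hyp/c-1, 8.79% in hyp/hyp and 3.46% in WT. A wider spread in the mutants was not particular to members. Over all genes averaging 1 TPM or more, the median SD of log2(TPM + 1), another measure, was 0.163 in hyp/c-1, 0.124 in hyp/hyp and 0.0852 in WT. Highest and lowest libraries were not counted over all genes. In an alternative chosen after seeing the data, both of those replicates 3 were left out. Then 8 members rose and 2 fell in hyp/c-1 against WT, with LHCA6 and PSBQ1 lower, where 13.9% of 17641 genes rose and 1782 genes fell, and 8 rose and 3 fell in hyp/hyp, where 12.6% of all genes rose and 10.7% fell. No member passed between the mutants, where 0.249% of all genes did, and the median log2 difference of hyp/c-1 over hyp/hyp was -0.0037, where it was 0.11 with all libraries.

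**Figure D4:**
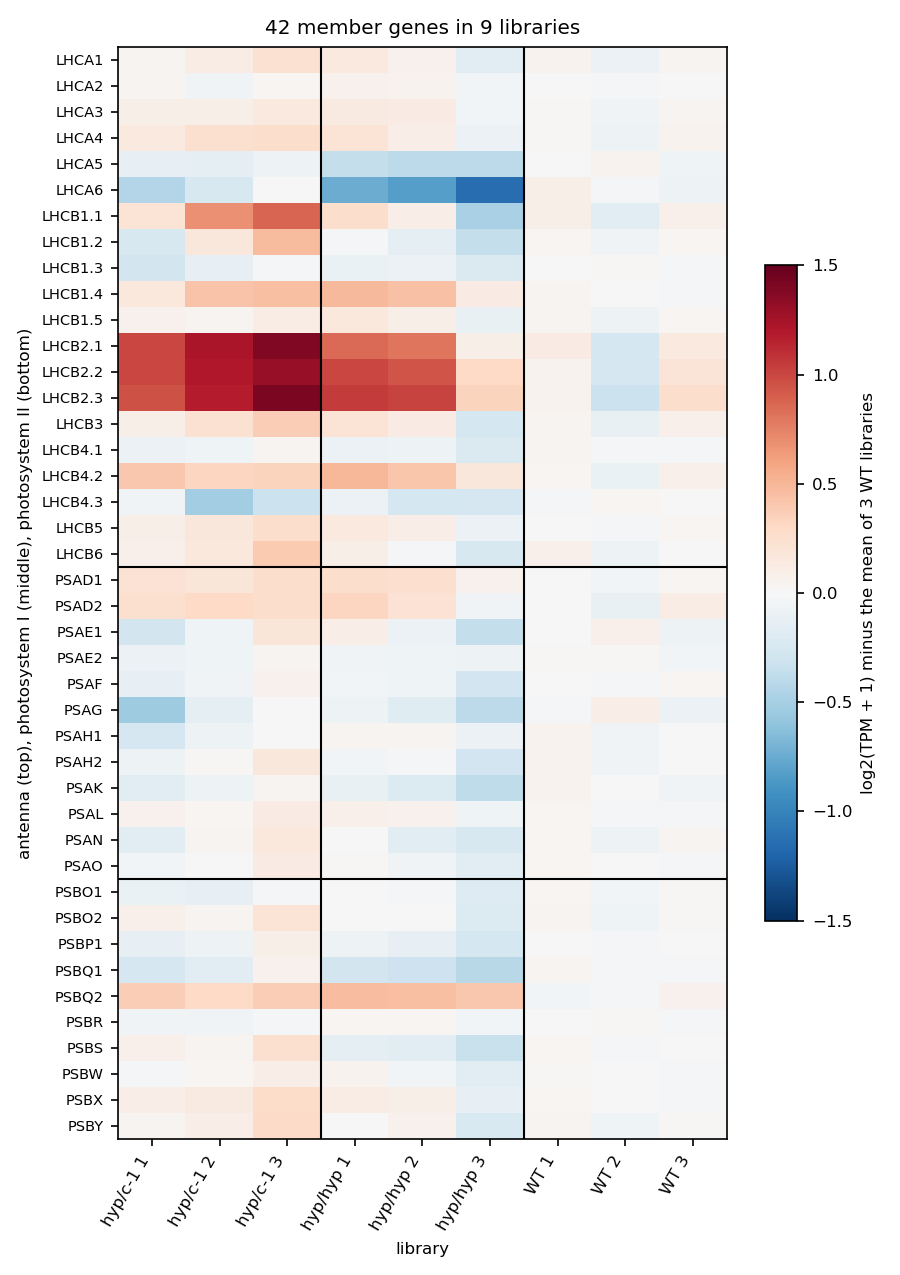
Difference of each library's log2(TPM + 1) from the mean of the 3 WT libraries (colour scale) for the 42 genes (rows, by class) in the 9 libraries (columns: hyp/c-1, hyp/hyp, WT). Replicate 3 of hyp/c-1 is redder and replicate 3 of hyp/hyp bluer than the other libraries of their genotype for most genes, and LHCB2 and LHCA6 show the strongest colours.

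Other genes of photosynthesis were described from lists, with members passing by the same limma fit. Their counts stand beside 11.2% of all genes tested higher and 9.21% lower in hyp/c-1 against WT, and 11.5% higher and 9.3% lower in hyp/hyp. Of 16 genes of the Calvin-Benson cycle, which fixes carbon dioxide, 14 fell and 0 rose in hyp/hyp, and 2 fell and 0 rose in hyp/c-1. Over 5 alternatives, 10 to 14 of these genes fell in hyp/hyp, while 2 to 9 fell and 0 to 1 rose in hyp/c-1. The contrast between the mutants thus depended on the setting. The median log2 difference of the 16 genes from WT was -0.18 in hyp/c-1 and -0.43 in hyp/hyp. RBCS1A, a small subunit gene of Rubisco, had 10353, 12822 and 15835 TPM in the hyp/c-1 libraries, 10610.0, 10897 and 9375 TPM in the hyp/hyp libraries and 16637, 16215 and 15339 TPM in the WT libraries, and its log2 difference was -0.64 in hyp/hyp (limma adjusted p = 0.0117). All hyp/hyp libraries of RBCS1A were below WT, and hyp/c-1 overlapped WT. RBCS1B fell by a log2 difference of 1.09 in hyp/hyp. TKL1, a transketolase, had log2 differences of -0.37 in hyp/c-1 and -0.63 in hyp/hyp. CP12-2, a regulator of the cycle, had -0.43 in hyp/c-1 and -0.42 in hyp/hyp. Between the mutants, FBA1 (log2 difference 0.66) and GAPB (0.39), genes of a plastid aldolase and a glyceraldehyde-3-phosphate dehydrogenase subunit, were higher in hyp/c-1.

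Among 11 genes of electron carriers and ATP synthase, 3 fell in hyp/c-1 and 5 fell in hyp/hyp, with 0 higher in either. FD1, a ferredoxin, had log2 differences of 0.76 for hyp/c-1 over hyp/hyp, and -0.76 for hyp/hyp over WT. PETE2, a plastocyanin, and FNR2, a ferredoxin reductase, fell in hyp/hyp with log2 differences of -0.46 and -0.45. In hyp/c-1, FNR2, PETM and PDE334 fell, with log2 differences of -0.30, -0.29 and -0.26. PETM and PDE334 also fell in hyp/hyp, with -0.41 and -0.34. Of 7 other nuclear photosystem proteins, 1 fell in hyp/c-1 (THF1, log2 difference -0.37) and 3 fell in hyp/hyp. PSB28, an assembly factor of photosystem II, had log2 differences of 0.67 for hyp/c-1 over hyp/hyp, but -1.04 for hyp/hyp over WT, and PSB33 and THF1 had -0.55 and -0.50 in hyp/hyp. Of 7 tested proteins related to the antenna family, 1 rose and 1 fell in hyp/c-1, and 4 fell in hyp/hyp. ELIP1, a light-stress protein, rose in hyp/c-1, its log2 difference being 1.04 at levels of 3.78, 1.495 and 1.62 TPM in hyp/c-1, against 0.495, 0.426 and 0.678 TPM in WT. LIL3.1 had log2 differences of -0.38 in hyp/c-1 and -0.75 in hyp/hyp, and SEP1 and OHP1 had -0.56 and -0.42 in hyp/hyp.

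Of 22 tested chlorophyll synthesis genes, 3 rose and 5 fell in hyp/c-1, and 2 rose and 11 fell in hyp/hyp. CAO, which makes the chlorophyll b bound by antenna proteins, had 159, 193 and 202 TPM in the hyp/c-1 libraries, 126, 117 and 76.7 TPM in the hyp/hyp libraries and 61.96, 48.04 and 71.7 TPM in the WT libraries. Both mutants were wholly above WT for CAO, with log2 differences of 1.603 in hyp/c-1 and 0.79 in hyp/hyp (limma adjusted p = 0.000573 and 0.0197). HEMA1, an early enzyme of the pathway, rose in hyp/c-1, its log2 difference being 1.17, and PORA, a protochlorophyllide reductase, rose in both, with 1.15 in hyp/c-1 and 1.22 in hyp/hyp. DVR, a vinyl reductase, fell in both, with -0.76 in hyp/c-1 and -1.16 in hyp/hyp. GUN4 was at 0 to 0.234 TPM and was not tested. It was named after its values were seen, and 946 bases of it overlap AT3G59410.

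Of 20 regulators of photosynthesis genes, 8 rose and 3 fell in hyp/c-1, and 6 rose and 3 fell in hyp/hyp. GLK1 and GLK2, transcription factors that activate antenna and chlorophyll genes, were higher in both mutants. GLK1 had 205, 168 and 257 TPM in the hyp/c-1 libraries, 166, 158 and 161 TPM in the hyp/hyp libraries and 98.01, 106 and 123 TPM in the WT libraries, and GLK2 had 107, 69.1 and 121 TPM in the hyp/c-1 libraries, 82.6, 67.97 and 59.4 TPM in the hyp/hyp libraries and 36.7, 32.4 and 46.8 TPM in the WT libraries. Every mutant library was above every WT library for both genes. Their log2 differences were 0.92 and 1.31 in hyp/c-1 and 0.57 and 0.84 in hyp/hyp (limma adjusted p = 0.00206, 0.00245, 0.0203 and 0.0196). SIG5, a sigma factor for chloroplast transcription, had log2 differences of 1.57 for hyp/c-1 over WT, 0.71 for hyp/hyp over WT and 0.86 for hyp/c-1 over hyp/hyp. SIG6 and SIG4 fell in both mutants, with log2 differences of -0.50 and -0.56 in hyp/c-1 and -0.66 and -0.63 in hyp/hyp.

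**Figure D5:**
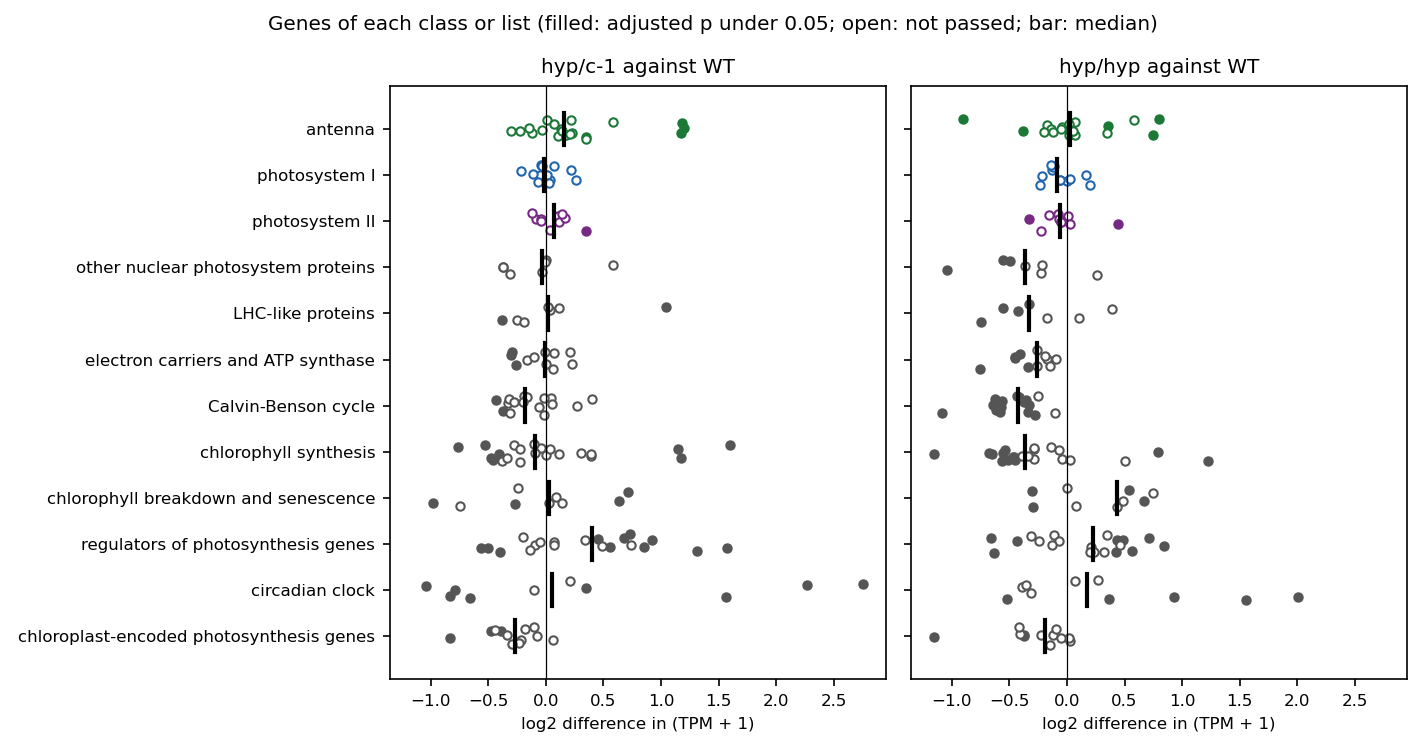
Difference in log2(TPM + 1) from WT for each gene (points; filled points passed at an adjusted p under 0.05) of the 3 member classes and 9 other lists (rows), in hyp/c-1 (left) and hyp/hyp (right), with bars for the median. The Calvin-Benson median is -0.18 in hyp/c-1 and -0.43 in hyp/hyp, while the antenna median is 0.16 in hyp/c-1 and 0.02 in hyp/hyp.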

How the data were processed

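The authors deposited TPM for 27655 genes in 9 libraries. Per the submitters' processing notes, fastp 0.20.1, HISAT2, DESeq2 1.26.0 and the TAIR10 build were used, with no role or order given. The counting program and its use of strand are not given in the sources used here. The deposited TPM divide reads by gene span with introns: 99.99% of 141160 values under 1000 reads were whole to within 0.02 of a read, and reads recovered this way gave the depths. The floor of 3 reads in a 2000 bp gene was 0.0825 to 0.149 TPM and covers counting error only. Libraries were grouped by genotype label.

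All members, and every gene averaging 1 TPM or more, were tested on log2(TPM + 1), a scale that understates changes of low genes, with limma 3.58.1 in R 4.3.3 (1 mean per genotype, moderated variances with trend). Two-sided p-values were adjusted by Benjamini-Hochberg over 17682 genes. The fit was tested on simulated data. Members, lists and motifs were chosen with earlier results of these data known. All 42 members could be named. Values per library are given for members that passed with no overlap, the extremes of each class, and paralogue families. From each list up to 3 passed genes per comparison with the largest difference are named, plus GLK1, GLK2 and CCA1. Coordinates and sequences are from RefSeq TAIR10.1, matched by locus to 27445 genes. Other steps used Biopython 1.88, numpy 2.4.6, pandas 2.3.3 and matplotlib 3.10.9 in Python 3.11.15. Alternatives were other pseudocounts, expression minimums and scalings, fewer samples, a replicate block and leaving out each library, with voom on recovered reads and leaving out 2 libraries added after seeing the data.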

Additional observations from a re-analysis of the deposited data

How the results depend on the processing

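No result changed direction while called. LHCB2.1, LHCB2.2 and LHCB2.3 in hyp/c-1 and LHCA5 and LHCA6 in hyp/hyp, each against WT, passed under all 21 alternatives run for single genes. The count of members higher in hyp/hyp than in WT, 4, was 0 with no expression minimum, 7 with quantile normalization, 1 with median-of-ratios scaling, 0 with an absolute log2 difference of at least 1 and 8 without both replicates 3 (hyp/c-1 and hyp/hyp). Of all genes, 5.59, 9.89, 11.1, 2.36 and 12.6% were higher in these settings, in that order. Leaving out 1 library gave 1 to 6, where 5.68 to 14.2% of all genes were higher. The count lower in hyp/hyp, 3, was 0 with the log2 minimum and 2 to 4 leaving out 1 library, where 0.503% and 4.84 to 11.4% of all genes were lower. For hyp/c-1 against WT, the count higher, 5, was 3 with no expression minimum, 3 with the log2 minimum and 8 without both replicates 3. Leaving out 1 library gave 3 to 9. The shares of all genes higher were 6.97, 2.61, 13.9 and 7.18 to 12.2%, in that order. The count lower, 0, was 1 with quantile normalization (LHCB4.1), 2 without both replicates 3 and 0 to 1 leaving out 1 library. Among all genes, 11.6%, 1782 of 17641 genes and 3.98 to 11.1% were lower in these settings, in that order. Between the mutants, the count higher, 1, was 0 with only the 2 genotypes compared, 0 with the log2 minimum, 0 without both replicates 3 and 0 to 5 leaving out 1 library. With only the 2 genotypes compared, 0 of all 17767 genes passed. In the other settings 0.226, 0.13 and 0 to 6.27% of all genes were higher. The median between the mutants, 0.11, was 0.0133 with quantile normalization, -0.0037 without both replicates 3 and 0.0411 to 0.166 leaving out 1 library. The cause was not tested. Quantile normalization moved the share of higher genes among all genes called in hyp/hyp against WT to 42.8%, beside 55.3%.

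Correlations between same-numbered libraries were weak, at -0.27 to 0.10. With only 3 libraries per genotype, such values cannot decide whether equal numbers mark a pairing, and the labels do not say. With a replicate block, 2 members were higher in hyp/hyp than in WT, beside 4, where 8.66% of all genes were. Between the mutants 0 members passed, beside 1, and 0 of all 17682 genes did. For the other lists, over 5 alternatives, the regulators higher in hyp/hyp numbered 3 to 8, and clock genes lower in hyp/hyp 1 to 4. Lower in hyp/c-1 were 2 to 9 Calvin-Benson genes, 4 to 10 chlorophyll synthesis genes and 0 to 4 genes of electron carriers and ATP synthase. Of all genes, 6.4 to 11.6% were lower in hyp/c-1 in these alternatives. With median-of-ratios scaling PSB28, FBA1, GAPB and SIG5 did not pass between the mutants. The list with PSB28 had 0 genes higher in hyp/c-1 than in hyp/hyp in all 5 alternatives, beside 1. The regulators had 0 in 4 of the 5, beside 1, and electron carriers and ATP synthase 0 in 2, beside 1. Calvin-Benson genes were fewer than 2 in 3 of the 5. In these alternatives 0 to 1.96% of all genes were higher. The depth puts all members far above the floor, so the number of libraries and their spread set the precision.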

Other observations

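Clock genes, chlorophyll breakdown genes and chloroplast-encoded genes were described from further lists in the same limma fit. Of 10 clock genes tested, 4 rose and 4 fell in hyp/c-1 against WT, and 4 rose and 1 fell in hyp/hyp. Of all genes tested, 11.2% rose and 9.21% fell in hyp/c-1, and 11.5% rose and 9.3% fell in hyp/hyp. CCA1, a morning-phased transcription factor, had 13.3, 13.7 and 19.96 TPM in the hyp/c-1 libraries, 10.9, 9.67 and 6.29 TPM in the hyp/hyp libraries and 1.21, 0.992 and 2.26 TPM in the WT libraries. Both mutants lay wholly above WT for CCA1, with log2 differences of 2.76 in hyp/c-1 and 2.004 in hyp/hyp (limma adjusted p = 5.55e-05 and 0.000569). PRR9 and RVE8, also clock genes of the morning, had log2 differences of 2.27 and 1.56 in hyp/c-1 and 1.55 and 0.93 in hyp/hyp. TOC1, an evening gene, had -1.04 in hyp/c-1, and LUX, of the evening complex, -0.52 in hyp/hyp. LHCB2 and CCA1 were higher in the same mutants, and whether the hour of harvest has a part in either was not tested.

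Of 9 tested genes of chlorophyll breakdown and senescence, 2 rose and 2 fell in each mutant against WT, beside the shares of all genes given for the clock list. SEN1, a senescence-associated gene, had 127, 126 and 64.5 TPM in the hyp/c-1 libraries, 360.0, 253 and 415 TPM in the hyp/hyp libraries and 204, 198 and 199 TPM in the WT libraries. Libraries of hyp/c-1 were the lowest and those of hyp/hyp the highest, and the log2 difference of hyp/c-1 over hyp/hyp was -1.72 with SE 0.25 (limma adjusted p = 0.0246). SGR1, a chlorophyll-dechelating protein, and SAG13 rose in both mutants, with log2 differences of 0.63 and 0.71 in hyp/c-1 and 0.54 and 0.67 in hyp/hyp. NYC1, a chlorophyll b reductase, fell in both, with -0.27 in hyp/c-1 and -0.30 in hyp/hyp.

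Among 12 chloroplast-encoded photosynthesis genes, psaC, psbB and atpB fell in both mutants and 0 rose. Their log2 differences from WT were -0.83, -0.39 and -0.48 in hyp/c-1 and -1.16, -0.37 and -0.38 in hyp/hyp. Shares of all genes are those printed with the clock list. The psaC differences rest on very low levels. WT averaged 2.32 ± 1.11 TPM of psaC (SD, n = 3), against 0.437 for hyp/hyp and 0.821 for hyp/c-1. The part of counting error in the psaC calls was not tested. The psbB levels were 7.02, 7.57 and 7.66 TPM in the hyp/c-1 libraries, 7.11, 8.705 and 6.799 TPM in the hyp/hyp libraries and 10.2, 11.2 and 8.75 TPM in the WT libraries, low beside the nuclear genes. Nuclear genes held 998645 to 999109 of the 1000000 TPM of each library. The part of library preparation in the low levels and differences of chloroplast-encoded genes was not tested.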
